A study of Mus musculus with 8 samples.

Results

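The choroid plexus epithelial genes described here are Ttr, Kcnj13, Folr1, Aqp1, Clic6, Kl, Enpp2, Sostdc1, Prlr and Slc4a5. They were taken by symbol, from a list chosen with earlier results of these data known. All 10 were found among the 48709 gene identifiers counted in each sample. RNA of the cortex at postnatal day 3 (P3), described in the methods as dorsal telencephalon (dTel), was sequenced from 4 dcKO_hGFAP-Cre and 4 control samples on a C57BL/6J background. The dcKO_hGFAP-Cre mutants carry BAF155 fl/fl and BAF170 fl/fl with hGFAP-Cre pos/+, and die soon after birth. The controls, labelled as control or WT, carry BAF155 fl/+ and BAF170 fl/+ with the same Cre according to the methods, so both groups have Cre and at least 1 floxed copy of each gene. In hGFAP-Cre mice a human GFAP promoter drives Cre recombinase, which acts in radial glia of the dTel rather than in every cell of the tissue. The labels do not say whether each sample came from a separate animal, so p-values measure only the spread between these samples.

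The choroid plexus is a folded sheet of epithelium inside the brain ventricles that secretes cerebrospinal fluid. Its epithelial cells arise from the roof plate and the neighbouring cortical hem, at the border of the dorsal telencephalon, and are joined by tight junctions into a barrier between blood and fluid. They carry water channels, ion channels and bicarbonate transporters for fluid secretion, receptors that take up folate or bind hormones from the blood, and secreted proteins such as the thyroid hormone carrier transthyretin. The tissue adjoins the cortex and is not part of its wall.

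Total counts were between 21126713 and 32110285 per sample, and 16525 genes passed the filter on low counts. Expression is given in CPM, the read count of a gene scaled to a common library total with TMM factors, and each gene was tested with edgeR's quasi-likelihood F test, with Benjamini-Hochberg adjustment over all 16525 genes and a threshold of 0.05. The floxed genes checked the labels. Smarcc1, which encodes BAF155, fell from 144 to 170 CPM in control to 73.6 to 86.9 CPM in dcKO_hGFAP-Cre samples (edgeR adjusted p = 5.44e-06), and Smarcc2, which encodes BAF170, fell from 469 to 500.3 CPM to 256 to 319 CPM (edgeR adjusted p = 2.28e-05).

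In mutant replicates 1 and 2, Ttr, Kcnj13, Folr1, Aqp1, Clic6 and Slc4a5 stood above all 4 controls, at 6.48 to 313 times the control mean. In mutant replicates 3 and 4 the same 6 genes were at 0.186 to 4.39 times the control mean. Enpp2 and Sostdc1 were also above all controls in mutant replicates 1 and 2, at 1.38 to 2.21 times the control mean, whereas Kl and Prlr were not. The groups overlapped for all 10 genes. In bulk tissue, a different number of cells of a type cannot be told apart from a different amount of RNA per cell.

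Clic6 was called higher in the mutant samples, a call that was lost without mutant replicate 1 or without replicate 2. No other gene of the 10 passed the test in either direction. Of the 8 that passed the filter on low counts, 1 was called higher, where 18.6% of all genes tested were called higher, and 0 were called lower, where the share among all genes was 18.9%. At an unadjusted p under 0.05, 3 of the 8 were higher and 0 lower in the edgeR test, where the shares over all genes were 24.2% and 23.0%. DESeq2 called 4 of the 8 higher (Ttr, Folr1, Aqp1 and Clic6) and 0 lower, beside 19.2% and 20.2% of all genes. limma-voom called 0 in either direction, beside 18.5% higher and 19.3% lower of all genes. In no gene of the 10 were all mutants above all controls or all below, against 16.7% and 17.7% of the genes tested. Kcnj13 and Slc4a5 did not pass the filter, and their fold changes come from a fit without it. The median log2 fold change of the 8 was 1.41, and that of all genes tested was 0.02. The value 1.41 lies in a gap between Sostdc1 (0.45) and Aqp1 (2.36), so it describes no single member. Exact two-sided permutation tests of the 10 genes, on CPM and not adjusted, gave p from 0.0857 (Clic6) to 1 (Prlr). In the edgeR fit without mutant replicates 1 and 2, where 9 of the 10 passed the filter, the median log2 fold change was -0.22 and 0 were called in either direction, with 0 higher and 1 lower (Kl) at an unadjusted p under 0.05. That fit called 8.06% of all genes higher and 9.18% lower, and 16.5% were at an unadjusted p under 0.05 in each direction. The fit was chosen after the values were seen, and it leaves out the pair of mutants in which most of these genes were high. Its lower median and its loss of the Clic6 call follow at least in part from that choice.

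**Figure D1:**
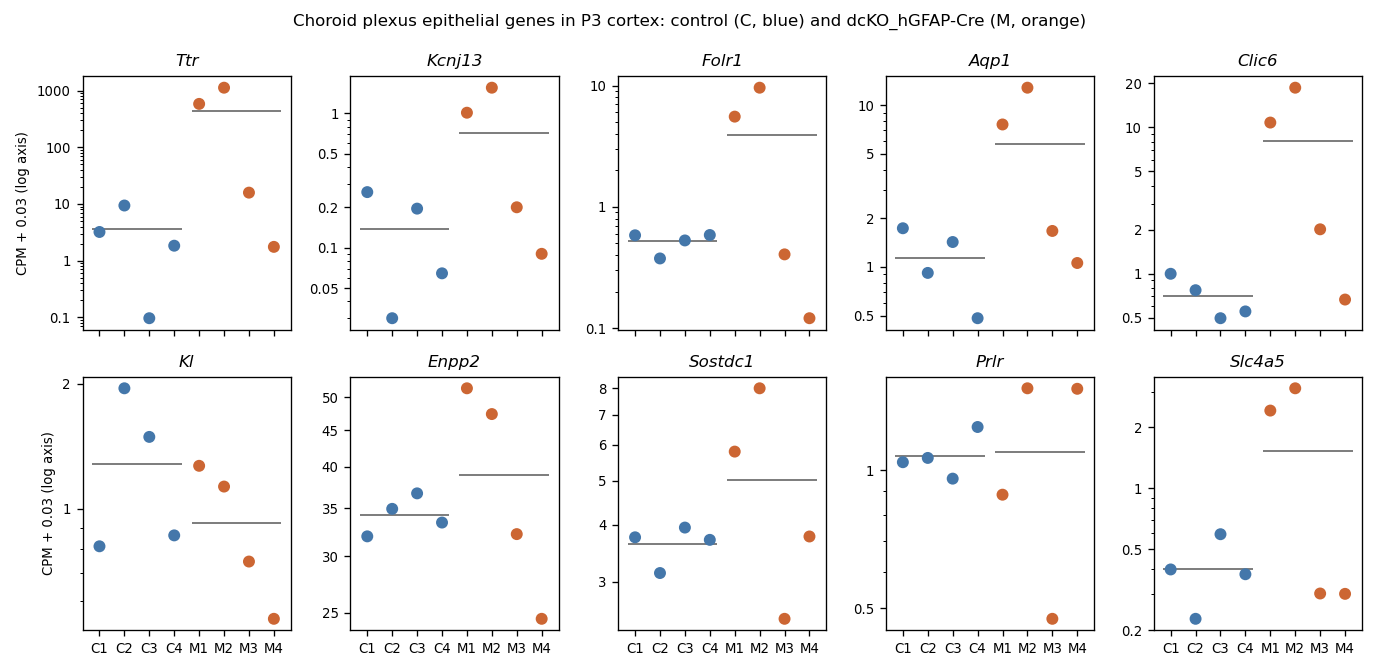
Expression of the 10 choroid plexus epithelial genes in each sample, as CPM + 0.03 on a log axis that differs between panels. C1 to C4 (blue) are control replicates, M1 to M4 (orange) are dcKO_hGFAP-Cre replicates, and lines are group means of CPM. Ttr, Kcnj13, Folr1, Aqp1, Clic6 and Slc4a5 were above all controls in M1 and M2, while M4 lay inside or below the control range for these genes.

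Among the secreted proteins, Ttr showed the widest range. Ttr (ENSMUSG00000061808, mm10 chromosome 18, 20665280 to 20674321, plus strand) encodes transthyretin, which carries thyroid hormone in cerebrospinal fluid and is a main product of the plexus epithelium. It had 3.18, 9.37, 0.0664 and 1.81 CPM in control replicates 1 to 4 and 584, 1128, 15.8 and 1.72 CPM in mutant replicates 1 to 4. Mutant replicates 1 and 2 were far above every other sample, replicate 3 was above all controls by less, and replicate 4 lay within the control range. In counts this was 13660 and 26614 in mutant replicates 1 and 2, against 2 to 190 in the controls. The log2 fold change was 7.0 ± 2.30 (SE, n = 4 per group, edgeR adjusted p = 0.0568), and the exact two-sided permutation test, whose smallest possible p is 0.0286, gave p = 0.114. Leaving out 1 library at a time gave edgeR adjusted p from 0.0273 to 0.135, with calls in 2 of 8 fits, and without mutant replicates 1 and 2 the log2 fold change was 1.31 ± 1.52 (SE, edgeR adjusted p = 0.608).

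Enpp2, which encodes autotaxin, a secreted enzyme that makes lysophosphatidic acid, had the highest control level of the 10 genes. It was at 31.9, 34.9, 36.7 and 33.4 CPM in control and 51.5, 47.4, 32.2 and 24.5 CPM in mutant replicates 1 to 4. Replicates 1 and 2 of the mutant were above, and replicate 4 below, all controls. The log2 fold change of Enpp2 was 0.18 ± 0.20 (SE, n = 4 per group, edgeR adjusted p = 0.518). Enpp2 is also made by other brain cells, and it shares exonic sequence with Gm26684 on the opposite strand, whose reads could not be separated where counting ignored strand.

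Sostdc1, a secreted antagonist of Wnt and BMP signalling, was at 3.73, 3.11, 3.92 and 3.68 CPM in control and 5.77, 7.97, 2.46 and 3.74 CPM in mutant replicates 1 to 4. Its controls lay close together, and the mutants fell on both sides of them. The log2 fold change was 0.45 ± 0.30 (SE, n = 4 per group, edgeR adjusted p = 0.250), and Sostdc1 passed the test only in the fit without mutant replicate 3 (edgeR adjusted p = 0.0325), among the fits that left out a single library.

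The water and ion transport genes were high in the same pair of mutants. Clic6 (ENSMUSG00000022949, chromosome 16, 92485736 to 92541243, plus strand), a member of the chloride intracellular channel family, was at 0.966, 0.739, 0.465 and 0.521 CPM in control and 10.8, 18.7, 1.98 and 0.634 CPM in mutant replicates 1 to 4. Mutant replicates 1 to 3 exceeded all controls, and replicate 4 lay among them. Its log2 fold change was 3.59 ± 1.12 (SE, n = 4 per group, edgeR adjusted p = 0.0428), and the exact permutation test gave p = 0.0857. The call of Clic6 was lost in 9 of 18 alternative fits, among them those without any 1 of the controls, and in the fit without mutant replicates 1 and 2 its log2 fold change was 0.96 ± 0.47 (SE, edgeR adjusted p = 0.182). Over the 18 fits its adjusted p was between 0.00101 and 0.182.

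Aqp1 encodes the water channel of the apical plexus membrane. It was at 1.70, 0.887, 1.39 and 0.451 CPM in control and 7.57, 12.8, 1.64 and 1.03 CPM in mutant replicates 1 to 4, with replicates 3 and 4 inside the control range. The log2 fold change of Aqp1 was 2.36 ± 0.89 (SE, n = 4 per group, edgeR adjusted p = 0.0762). Kcnj13 encodes the inward rectifier potassium channel Kir7.1, found in plexus epithelium and in retinal pigment epithelium. Kcnj13 was scarce, with 5, 0, 5 and 1 counts in control and 23, 36, 5 and 2 counts in mutant replicates 1 to 4. The 0 of control replicate 2 allows a level of up to 0.148 CPM, and counting error limits the other values as well. Kcnj13 was at 0.230, 0, 0.166 and 0.0347 CPM in control and 0.983, 1.53, 0.171 and 0.0604 CPM in mutant replicates 1 to 4, so only mutant replicates 1 and 2 were apart from all controls. Without the filter its log2 fold change was 2.53 ± 1.24 (SE, n = 4 per group, edgeR adjusted p = 0.243). It overlaps an exon of Gigyf2 on the opposite strand.

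Slc4a5 encodes a sodium bicarbonate cotransporter of the plexus. Its level was 0.368, 0.197, 0.564 and 0.347 CPM in control and 2.39, 3.09, 0.273 and 0.272 CPM in mutant replicates 1 to 4. Again replicates 1 and 2 stood above the controls and replicates 3 and 4 lay among them. In the fit without the filter the log2 fold change of Slc4a5 was 1.92 ± 0.98 (SE, n = 4 per group, edgeR adjusted p = 0.265).

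The promoters of Kcnj13, Aqp1 and Slc4a5 are shown because these genes were high in the same 2 libraries. RefSeq promoters (GRCm38.p6) matched 5 of the 10 genes, namely these 3, Kl and Prlr. Each sequence is the 250 bases before a RefSeq start, 5′ to 3′ on the strand of the gene, with capitals where TATAAA (the TATA box) or TAAACA (a core of forkhead factor sites) occurs on either strand. Kcnj13 lies at chr1:87394730-87394979 on the minus strand, Aqp1 at chr6:55336049-55336298 on the plus strand, and Slc4a5 at chr6:83237125-83237374 on the plus strand, upstream of a start inside the gene as GENCODE outlines it.
Kcnj13: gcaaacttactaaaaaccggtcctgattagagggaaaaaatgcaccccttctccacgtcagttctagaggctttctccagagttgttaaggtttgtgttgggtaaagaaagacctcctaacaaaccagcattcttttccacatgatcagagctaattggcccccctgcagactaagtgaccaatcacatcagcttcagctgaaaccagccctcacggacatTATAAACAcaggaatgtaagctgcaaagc
Aqp1: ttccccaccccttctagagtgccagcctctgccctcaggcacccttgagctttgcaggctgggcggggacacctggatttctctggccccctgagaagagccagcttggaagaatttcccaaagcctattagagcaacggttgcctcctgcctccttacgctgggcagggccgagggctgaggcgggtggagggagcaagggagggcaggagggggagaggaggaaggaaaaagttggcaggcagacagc
Slc4a5: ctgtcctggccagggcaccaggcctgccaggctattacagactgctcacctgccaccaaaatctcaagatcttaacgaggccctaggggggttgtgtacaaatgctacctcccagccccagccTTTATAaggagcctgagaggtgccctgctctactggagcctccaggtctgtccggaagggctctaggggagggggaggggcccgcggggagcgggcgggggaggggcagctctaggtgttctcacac
In Kcnj13 the TATA box begins 29 bases before the start and overlaps the TAAACA match that begins at 27. Slc4a5 has TATAAA on the reverse strand, beginning 127 bases before the start. The Aqp1 window holds neither, and it ends before the start that GENCODE gives for the gene (55336432). Of 32817 promoters of this length, 12.4% hold TATAAA, 12.0% hold TAAACA and 6.25% hold TAATCC, the core bound by Otx2. TAATCC occurred in none of the windows of the 5 matched genes on either strand, and TAAACA occurred in those of Kcnj13 and Prlr. Among 22 matched genes of the other plexus list described further on, with 29 windows in all, TAATCC was found for Ace, Car14 and Otx2.

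The genes for receptors divided. Folr1 (ENSMUSG00000001827, chromosome 7, 101858331 to 101870788, minus strand) encodes folate receptor alpha, with which the plexus moves folate into the fluid. It was at 0.552, 0.345, 0.498 and 0.555 CPM in control and 5.52, 9.58, 0.375 and 0.0906 CPM in mutant replicates 1 to 4. Replicates 1 and 2 of the mutant were above, and replicate 4 was below, every control. The log2 fold change of Folr1 was 2.94 ± 1.31 (SE, n = 4 per group, edgeR adjusted p = 0.122), and without mutant replicates 1 and 2 it was -1.10 ± 0.55 (SE, edgeR adjusted p = 0.194).

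Prlr encodes the prolactin receptor, and Kl encodes klotho, a co-receptor for FGF23 that is also shed into the fluid. Prlr was at 1.01, 1.04, 0.930 and 1.21 CPM in control and 0.855, 1.48, 0.444 and 1.48 CPM in mutant replicates 1 to 4, with mutants 2 and 4 above and 1 and 3 below the controls. Kl was at 0.782, 1.92, 1.46 and 0.833 CPM in control and 1.24, 1.10, 0.716 and 0.513 CPM in mutant replicates 1 to 4, so its mutants 1 and 2 lay inside the control range and its mutants 3 and 4 below it. Neither passed the test, with a log2 fold change of 0.02 ± 0.34 for Prlr (SE, edgeR adjusted p = 0.965) and of -0.50 ± 0.36 for Kl (SE, edgeR adjusted p = 0.288). Prlr shares exonic sequence with Gm21973 on the same strand.

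Mutant replicate 2 had more than replicate 1 of most of these genes. Replicate 2 over replicate 1 was 1.93 for Ttr (95% interval 1.89 to 1.97), 1.74 for Folr1 (1.39 to 2.17), 1.73 for Clic6 (1.48 to 2.03) and 1.69 for Aqp1 (1.40 to 2.05), with intervals that cover counting error only. The ratio of Kcnj13 was 1.55 (0.894 to 2.74) and that of Slc4a5 was 1.29 (0.900 to 1.86), both with wide intervals. Prlr had 1.73 (0.974 to 3.17). Sostdc1 stood at 1.38 (1.10 to 1.73), Kl at 0.889 (0.503 to 1.56) and Enpp2 at 0.920 (0.848 to 0.999), so Enpp2 was lower in the mutant that had more Ttr.

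Spread within the mutant group exceeded that within the control group for 9 of the 10 genes, Kl being the exception. The SD of log2 CPM (prior count 2) in control and mutant samples was 0.28 and 2.82 for Folr1, 0.09 and 0.50 for Enpp2, 0.14 and 0.73 for Sostdc1, and 0.15 and 0.75 for Prlr. Over all genes tested the median SD was 0.16 in control and 0.19 in mutant samples. Ttr varied within the control group too, with SDs of 2.57 and 4.39. The biological coefficient of variation, the spread between replicates that edgeR estimates beyond counting error, was 1.61 for Ttr, 1.08 for Folr1, 0.873 for Clic6 and 0.203 for Enpp2, and its median over all genes was 0.137.

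Summed over the 10 genes, expression was 44.5, 52.5, 46.1 and 42.8 CPM in control and 671, 1231, 56.1 and 34 CPM in mutant replicates 1 to 4, a ratio of group means of 10.7. Without Ttr the sums were 41.3, 43.1, 46.1 and 41 CPM in control and 86.6, 104, 40.2 and 32.3 CPM in the mutants, a ratio of 1.53. The sum without mutant replicates 1 and 2 gave a ratio of 0.969. Ttr made up 87.1% and 91.6% of the summed CPM in mutant replicates 1 and 2, 28.2% in replicate 3 and 5.06% in replicate 4, and 0.144% to 17.8% in the controls. In the controls Enpp2 made up 66.5% to 79.5%.

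Per kilobase of merged exon, which allows comparison between genes, the control levels ran in the order Enpp2 (5.92 ± 0.352 CPM per kilobase, SD, n = 4), Ttr (3.04 ± 3.41), Sostdc1 (2.03 ± 0.197), Aqp1 (0.422 ± 0.210), Folr1 (0.212 ± 0.0430), Clic6 (0.172 ± 0.0585), Kl (0.134 ± 0.0584), Kcnj13 (0.0848 ± 0.0854), Prlr (0.0683 ± 0.00783) and Slc4a5 (0.0636 ± 0.0260). Ttr overlapped both its neighbours in this order, Sostdc1 lay above Aqp1 in every control, and from Aqp1 down each gene overlapped the next. In mutant replicate 2 the level per kilobase was 951 for Ttr, 8.20 for Enpp2, 4.87 for Aqp1, 4.77 for Clic6, 4.47 for Sostdc1 and 4.17 for Folr1. There Aqp1, Clic6 and Folr1 were at the level of Sostdc1, which in the controls exceeded each of them.

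A list of 23 other genes of choroid plexus epithelium was described in the same way. Of the 17 that passed the filter, 9 were called higher and 3 lower, beside 18.6% and 18.9% of all genes tested, and their median log2 fold change was 1.44. In 8 all mutants were above all controls, and in 2 all were below (16.7% and 17.7% of all genes). In the controls Otx2 had 2 to 7 counts, Lmx1a 1 to 8, Krt18 3 to 11 and Kcne2 7 to 13. Otx2, Lmx1a, Krt18 and Kcne2 passed the filter only through their mutant values, which limits what these counts of calls show. The remaining 5 of the 17 (Slc13a4, Col8a1, Ace, Slc2a12 and Igfbp2) did not pass the test, and 6 (Cldn2, Calml4, Tmem72, F5, Krt8 and Steap1) were below the filter. Several of these genes, such as Slc29a4, Igfbp2 and Trpm3, are also made by other cells of the brain, and the summed CPM of the list was 437 to 497 in control and 304 to 414 in mutant samples.

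Otx2 and Lmx1a, transcription factors of the plexus and of its origin, were higher in all 4 mutants. Otx2, required for choroid plexus development, was at 0.276, 0.246, 0.232 and 0.0694 CPM in control and 8.55, 13.6, 3.07 and 3.95 CPM in mutant replicates 1 to 4. All 4 mutants were above all controls, and the log2 fold change was 5.15 ± 0.63 (SE, n = 4 per group, edgeR adjusted p = 3.17e-04). Lmx1a, a roof plate factor, was at 0.0347 to 0.266 CPM in control and 2.48, 2.88, 0.614 and 1.18 CPM in mutants, likewise without overlap (log2 fold change 3.35 ± 0.59, SE, edgeR adjusted p = 0.00125). Without mutant replicates 1 and 2, Otx2 (log2 fold change 4.11 ± 0.38, SE, edgeR adjusted p = 1.78e-04) and Lmx1a (2.39 ± 0.55, SE, edgeR adjusted p = 0.0163) were still called higher. In that fit too, Otx2 and Lmx1a passed the filter only through their mutant values, which limits what these calls show. Msx1, a homeobox factor of the dorsal midline, had a log2 fold change of 1.67 ± 0.51 (SE, edgeR adjusted p = 0.0307) and overlapped between the groups through mutant replicate 4. Without mutant replicates 1 and 2 its log2 fold change was 0.76 ± 0.42 (SE, edgeR adjusted p = 0.239), and Msx1 was not called in 8 of 18 alternative fits, among them those without control replicate 1, 2 or 4 or mutant replicate 1 or 2. Otx2 overlaps exons of Otx2os1 on the opposite strand and of Gm49154 on its own.

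Among channels, enzymes and receptors of the list, Kcne2 and Krt18 were highest in mutant replicates 1 and 2. Kcne2, a potassium channel subunit of the plexus, was at 0.266 to 0.460 CPM in control and 7.10, 7.92, 0.512 and 0.604 CPM in mutant replicates 1 to 4 (log2 fold change 3.38 ± 1.08, SE, edgeR adjusted p = 0.0444). Kcne2 was not called in 11 of 18 alternative fits, among them those without any 1 control, without mutant replicate 1 or 2 and with the replicate block, and without both of these mutants its log2 fold change was 0.56 ± 0.40 (SE, edgeR adjusted p = 0.359). Krt18, an epithelial keratin, was at 0.148 to 0.382 CPM in control and 1.92, 2.84, 0.546 and 0.453 CPM in mutants (log2 fold change 2.38 ± 0.64, SE, edgeR adjusted p = 0.0145), and without mutant replicates 1 and 2 its log2 fold change was 0.90 ± 0.45 (SE, edgeR adjusted p = 0.189). Tmem72, Calml4 and Cldn2, below the filter, were also highest in this pair. Tmem72 had 172 and 109 counts there and 0 to 4 counts in the other 6 samples, Calml4 had 107 and 157 counts against 3 to 13, and Cldn2, a claudin of leaky epithelia, had 46 and 41 counts against 0 to 7.

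Htr2c, Car12, Car14 and Trpv4 were above all controls in every mutant, as were Kcne2 and Krt18. Each of these genes was highest in mutant replicates 1 and 2. Htr2c, a serotonin receptor abundant in the plexus and present in neurons, was at 5.55 to 9.37 CPM in control and 36.9, 40.9, 27.1 and 33.8 CPM in mutants (log2 fold change 2.13 ± 0.17, SE, edgeR adjusted p = 3.90e-06). The carbonic anhydrases Car14 and Car12 had log2 fold changes of 1.60 and 1.49, and the cation channel Trpv4 one of 1.44, with edgeR adjusted p of 0.00625, 0.00379 and 0.00546. Slc29a4, a monoamine transporter, fell by 1.08 on the log2 scale, Trpm3, a cation channel, fell by 0.73, and Slc12a2, the NKCC1 cotransporter, fell by 0.29, with edgeR adjusted p of 3.97e-06, 7.77e-04 and 0.0411. Slc12a2 overlapped between the groups, at 53.8 to 70.8 CPM in control and 46.7 to 56.2 CPM in mutants, and was not called in 11 of 18 alternative fits, among them 7 of the 8 that left out 1 library (all but that without control replicate 4). Without mutant replicates 1 and 2, the list had 4 genes called higher (Lmx1a, Htr2c, Otx2 and Car12) and 2 lower (Slc29a4 and Trpm3), where 8.06% and 9.18% of all genes were called. Of these, Lmx1a and Otx2 passed the filter only through their mutant values.

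**Figure D2:**
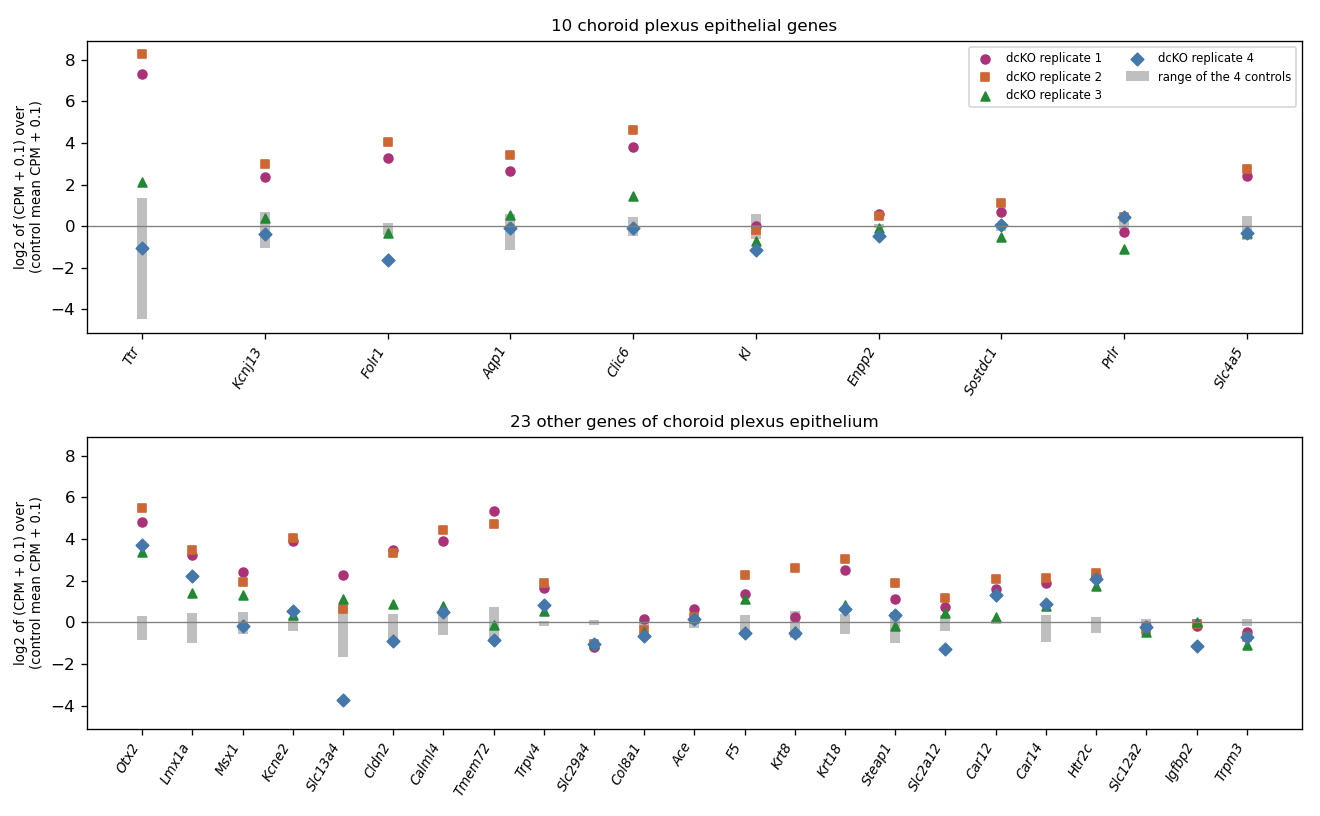
Each mutant relative to the control mean, as log2 of (CPM + 0.1) over (control mean + 0.1), for the 10 genes (top) and 23 other genes of choroid plexus epithelium (bottom); symbols are the 4 dcKO_hGFAP-Cre replicates and grey bars the range of the 4 controls. Ttr spread from below to far above the control mean, at 0.478 to 313 times without the offset, whereas Otx2 was at 14.9 to 66.2 times it in all 4 mutants.

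**Figure D3:**
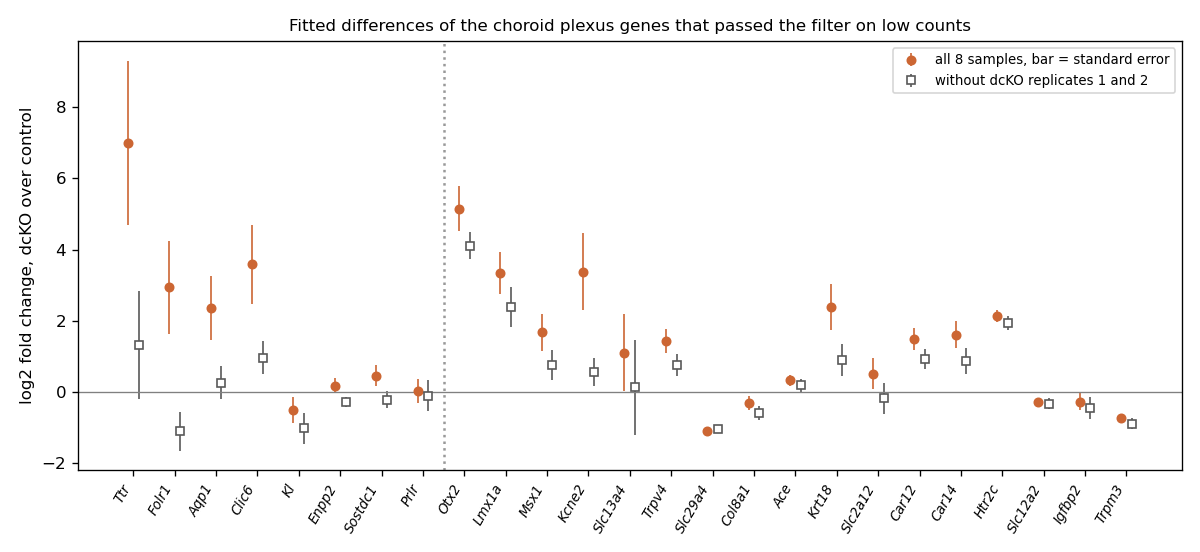
Fitted log2 fold change, dcKO_hGFAP-Cre over control, of the 8 choroid plexus epithelial genes (left of the dotted line) and 17 other plexus genes that passed the filter on low counts. Filled circles with standard errors are the fit to all 8 samples and open squares the fit without mutant replicates 1 and 2, in which Clic6 moved from 3.59 to 0.96 and Otx2 from 5.15 to 4.11.

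Every sequencing lane held both groups, with lane 5 taking replicates 1 and 2, lane 6 taking replicate 3 and lane 7 taking replicate 4. Within lane 5 the log2 ratio of mutant to control means (with 0.1 CPM added) was 7.07 for Ttr, 3.96 for Clic6, 3.80 for Folr1, 2.89 for Slc4a5, 2.88 for Aqp1 and 2.65 for Kcnj13. Lane 6, with 1 sample per group, gave 6.58 for Ttr, where the control had 2 counts, 1.88 for Clic6, 0.22 for Aqp1, 0.02 for Kcnj13, -0.33 for Folr1 and -0.83 for Slc4a5. Lane 7, also with 1 sample per group, gave -0.07 for Ttr, 0.24 for Clic6, 1.03 for Aqp1, 0.25 for Kcnj13, -1.78 for Folr1 and -0.27 for Slc4a5. Among the controls, those of lane 5 had the most Ttr (3.18 and 9.37 CPM, against 0.0664 and 1.81 CPM on the other lanes) and the most Clic6 (0.966 and 0.739 CPM, against 0.465 and 0.521 CPM), but not the most Folr1 (0.552 and 0.345 CPM, against 0.498 and 0.555 CPM). The part of the lane in these values was not tested.

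Marker lists of neighbouring tissues were read beside these genes, and their counts of calls stand against 18.6% higher and 18.9% lower over all genes in edgeR. The 10 markers of meninges and plexus stroma summed to 161, 115, 299 and 105 CPM in control and 473, 165, 368 and 46.6 CPM in mutant replicates 1 to 4. In either direction 0 of them were called by edgeR, DESeq2 or limma-voom, and 0 had an unadjusted p under 0.05. Mutant replicate 1, next to replicate 2 in Ttr, had the highest of these sums. Replicate 2, with the most Ttr, was inside the control range, replicate 3, with 15.8 CPM of Ttr, was above it, and replicate 4 was lowest in both among the mutants. The 10 ependymal markers summed to 25.7 to 30.05 CPM in control and 35.2, 48.6, 31.8 and 31.2 CPM in mutants. Of the 9 tested, Tekt1, Mlf1 and Dynlrb2 were called higher and Foxj1 and Ccdc153 lower. Foxj1, the regulator of motile cilia, which plexus epithelium also uses, was at 13.2 to 16.0 CPM in control and 6.70 to 8.60 CPM in mutants, and Ccdc153 was at 0 in mutant replicates 1, 2 and 4. Wnt2b, Wnt8b and Rspo2 were called higher among the 8 tested genes of cortical hem and roof plate, and 0 were lower. Wnt8b was at 0 to 0.276 CPM in control and at 1.45, 1.10, 0.785 and 0.966 CPM in mutants.

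The 5 red blood cell genes summed to 53.5 to 73.1 CPM in control and 92.1, 130.0, 117 and 37.1 CPM in mutants. In either direction 0 were called by edgeR, DESeq2 or limma-voom, and 1 was higher at an unadjusted p under 0.05 in DESeq2 alone. The 8 endothelial genes summed to 202 to 264 CPM in control and 113 to 198 CPM in mutants, with 4 called lower by edgeR, 6 by DESeq2 and 5 by limma-voom. Of 7 cortical neuron genes 6 were called lower, of 8 striatal genes 5 higher (7 by DESeq2 and by limma-voom), and of 7 tested thalamus and midbrain genes 5 higher. The part of these tissues in the values of the plexus genes was not tested.

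**Figure D4:**
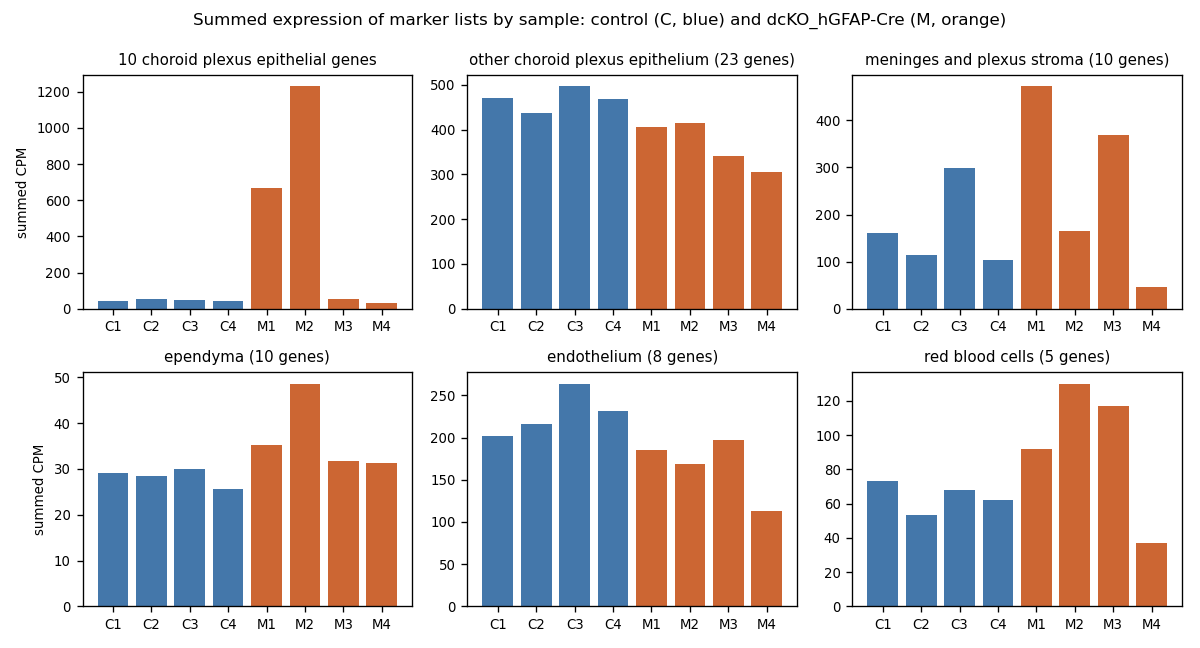
Summed CPM of 6 gene lists in each sample, with control replicates C1 to C4 in blue and dcKO_hGFAP-Cre replicates M1 to M4 in orange. The 10 choroid plexus epithelial genes peaked in M1 and M2 (671 and 1231 CPM), the list of meninges and plexus stroma in M1 and M3 (473 and 368 CPM).

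Likeness to the 10 genes was measured by Pearson's r across the 8 samples, between log2 CPM of a gene and the mean log2 CPM of the 8 members that passed the filter, over 14616 genes with a mean of at least 1 CPM. Outside both plexus lists the highest were Arl4a (r = 0.976), Kdm1a (0.956), Thumpd2 (0.954), Nsun3 (0.940), 1700086O06Rik (0.939), Pskh1 (0.938), A430027H14Rik (0.937), Arsg (0.933), Cdkl3 (0.930) and Lysmd4 (0.926). Arl4a was at 99.3 to 105 CPM in control and 111.9, 118, 104 and 101.4 CPM in mutant replicates 1 to 4. Arsg, the one of these 10 called higher (edgeR adjusted p = 0.0345), was at 3.94 to 5.94 CPM in control and 10.3, 12.8, 5.77 and 5.28 CPM in mutants. Each of these r values was lower without mutant replicates 1 and 2, by amounts that differed between the genes. Without them r was between -0.14 and 0.86 for the 10. It was 0.86 for Nsun3 and 0.80 for Arl4a, but 0.096 for Arsg, 0.027 for Cdkl3 and -0.14 for 1700086O06Rik. The members did not all share this profile. Against the mean of the other members tested, r was 0.07 for Prlr, 0.20 for Kl and 0.80 to 0.97 for the rest. Without the 2 samples farthest from the median of that mean, r ran from -0.78 (Sostdc1) to 0.62 (Clic6).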

How the data were processed

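RNA was isolated with TRIZOL and libraries were made with the TruSeq RNA Sample Preparation v2 Kit. Per the methods, the reads of each gene were counted with featureCounts after alignment to mm10. The authors deposited these raw counts, not normalized, in 1 file per sample. The aligner, annotation release, strand setting and treatment of multiply matching reads are not given in the sources used here. Of 48709 Ensembl identifiers, 48349 were matched to symbols in GENCODE M21, and 30608 had a count.

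The counts were tested with edgeR 4.0.16 (R 4.3.3) by the quasi-likelihood F test, robust, with TMM scaling, filterByExpr (minimum count 10) and no block, using all 8 samples and Benjamini-Hochberg adjustment over 16525 genes. Exact two-sided permutation tests over 70 arrangements used CPM. DESeq2 1.42.0, the tool of the study, and limma-voom (limma 3.58.1) were alternatives, with those listed in the closing section. Counts of 3 set the lower limit per library, 0.0906 to 0.148 CPM. On simulated counts for 16357 genes, with 200 changed 2-fold, the edgeR test recovered 78.5%, and 4.85% of its calls were false. The 200 were drawn at random from genes with a median biological coefficient of variation of 0.137. This recovery therefore does not apply to members such as Ttr (1.61), Folr1 (1.08) and Clic6 (0.873). No 2 replicates agreed within sampling noise.

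The members and gene lists were chosen with earlier results of these data known. All 10 members are named, and 1 gene beyond the 23 others listed is not reported here. From the other plexus list those called are given with values, from marker lists counts, sums and up to 3 genes, and 10 further genes by likeness. Tmem72, Calml4 and Cldn2, and the fit without mutant replicates 1 and 2, were chosen after values were seen. Promoters are RefSeq's (GRCm38.p6), searched on both strands in 250 bases.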

Additional observations from a re-analysis of the deposited data

Results flagged for a closer look

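Among 68 groups of 4 samples examined (the members and the other plexus genes, in each group, and the summed levels), 3 held a sample that lay apart from the other 3 by Dixon's 95% criterion, where chance alone gives about 3.4 (1 in 20). None was a member, but the criterion looks for 1 sample apart from the other 3. It is not suited to members in which mutant replicates 1 and 2 were both high. Slc29a4 was at 96.2 CPM in mutant replicate 1, below the other mutants, whose nearest was at 107 CPM. Ace was at 15.0 CPM in mutant replicate 1, above the other mutants, with the nearest at 11.3 CPM. Krt8 was at 1.27 CPM in mutant replicate 2, where the nearest mutant was at 0.171 CPM.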

How the results depend on the processing

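The call of a member as higher depended on the tool and the libraries. DESeq2 and edgeR without robust estimation each called 4 (Ttr, Folr1, Aqp1 and Clic6), the lane as a block gave 2, and limma-voom and the fit without the filter on low counts gave 0, and leaving out 1 library at a time gave 0 to 5 (0 without any 1 control or mutant replicate 1 or 2, 4 without mutant replicate 3, 5 without mutant replicate 4). 0 members were called lower in any fit run. Fits without mutant replicates 1 and 2 together, added after seeing the data, gave 0 members called higher, a median of -0.22 in place of 1.41, a summed ratio of 0.969 in place of 10.7, log2 fold changes of -1.10 for Folr1, -0.28 for Enpp2, -0.22 for Sostdc1 and -0.10 for Prlr, and 4 other plexus genes called higher in place of 9. The cause was not tested. With at least 10 counts in every sample, which tests fewer genes, 4 other plexus genes (Htr2c, Msx1, Trpv4 and Car12) were called higher. Otx2, Lmx1a, Car14, Krt18 and Kcne2 were not tested there, since some controls had fewer counts. Prlr changed sign also with limma-voom (-0.13), the lane block (-0.051) and in fits that left out 1 library (-0.19 to 0.28). Leaving out 1 library, the median was 1.28 to 2.31, the summed ratio 5.45 (without mutant replicate 2) to 14.0, and other plexus genes called higher 7 to 12. Scaling by library totals moved the median of all genes to 0.15 from 0.02, and changed no member's call. The split of calls over all genes was then 4584 higher and 2102 lower, against 3074 and 3128.

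With the replicate number as a block, 1 member (Clic6) was called higher, the median was 1.12, and Prlr changed sign (-0.068), and 8 other plexus genes were called higher. Same-numbered samples deviated with correlations of 0.17, -0.07, 0.21 and -0.02, so the numbers were not taken to pair the samples.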

Other observations

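A search made after the values were seen took genes with at least 20 counts in both mutant replicates 1 and 2 whose lower CPM of the 2 was at least 3 times the highest of the other 6 samples. Of 14772 genes with that count, 15 met it. They were 6 of the members (Ttr, Folr1, Clic6, Aqp1, Kcnj13 and Slc4a5), 5 of the other plexus list (Tmem72, Kcne2, Calml4, Cldn2 and Krt18) and 4 in neither list (Defb11, Prr32, Mfrp and Cdh3). The pair was searched because these members were high in it, so their presence among the 15 is not a separate result. Prr32 had 70 and 116 counts in mutant replicates 1 and 2 and 0 to 2 counts in the other 6 samples, Defb11 had 20 and 32 counts and 0 in each of the others, Mfrp had 37 and 30 counts against 1 to 4, and Cdh3, a cadherin of epithelia, had 25 and 43 counts against 1 to 6. Otx2 and Lmx1a were not among the 15, since mutant replicates 3 and 4 also had them.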
